A study of Homo sapiens with 6 samples.

Results

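The ADAM and ADAMTS proteases were followed through 10 genes, taken by name from the deposited table: the membrane-bound ADAM9, ADAM10, ADAM15 and ADAM17 and the secreted ADAMTS1, ADAMTS2, ADAMTS5, ADAMTS6, ADAMTS9 and ADAMTS12. They are 10 of 19514 gene names in the table and occupy 13 of its 22312 rows, since ADAM9, ADAMTS2 and ADAMTS12 have a second row on an alternate scaffold. Rows of the same name were summed. The samples were cultures of ARPE-19, a long-established human cell line from the retinal pigment epithelium, labelled as wild type. For 24 h they received medium with 40 µM trans,trans-2,4-decadienal (tt-DDE, an unsaturated aldehyde that forms when linoleic acid is oxidised) or medium with the same volume of its DMSO vehicle, and polyadenylated RNA was then sequenced. Each group held 3 libraries. Nothing in the labels says whether these came from separate cultures, so the p-values measure the spread between these libraries, which may be technical. The comparison asks how transcripts of these proteases differed after the aldehyde.

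ADAM proteases are membrane-anchored enzymes with a zinc-binding metalloprotease domain and a disintegrin domain, and several of them cut the outer part off other membrane proteins, which is called shedding. ADAM17 releases tumour necrosis factor, ligands of the EGF receptor and the interleukin 6 receptor, while ADAM10 makes the first ligand-induced cut in Notch receptors and cuts N-cadherin and the amyloid precursor protein. ADAMTS proteases are secreted, bind matrix through thrombospondin repeats and cut proteoglycans, procollagens and microfibril proteins. In the eye, the retinal pigment epithelium rests on Bruch's membrane, a layered matrix, and loss of ADAM9 in humans causes a cone-rod dystrophy.

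The sheddases ADAM17 and ADAM10 moved in opposite directions, so the 250 bases before their RefSeq starts (GRCh38.p14, minus strand of each chromosome) are shown here, with GC boxes (GGGCGG, either strand) in capitals. The ADAM17 window is chr2:9555831-9556080 and the ADAM10 window is chr15:58749708-58749957.
ADAM17: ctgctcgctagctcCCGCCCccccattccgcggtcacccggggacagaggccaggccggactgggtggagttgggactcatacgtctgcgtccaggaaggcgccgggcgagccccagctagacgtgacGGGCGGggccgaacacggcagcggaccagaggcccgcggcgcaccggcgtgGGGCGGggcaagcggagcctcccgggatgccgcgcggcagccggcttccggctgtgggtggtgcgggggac
ADAM10: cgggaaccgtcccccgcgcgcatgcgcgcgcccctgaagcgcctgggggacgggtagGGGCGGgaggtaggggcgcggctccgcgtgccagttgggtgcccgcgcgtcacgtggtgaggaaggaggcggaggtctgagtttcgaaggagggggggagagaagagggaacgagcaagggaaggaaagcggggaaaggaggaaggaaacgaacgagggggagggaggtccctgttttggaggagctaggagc
Both windows are rich in G and C, with 75.6% and 31 CpG dinucleotides for ADAM17 and 68.4% and 25 for ADAM10, where the medians of all promoters in the table are 58% and 11. ADAM17 holds 3 GC boxes and ADAM10 holds 1, and 42.6% of the 35116 promoters searched hold at least 1 in the same 250 bases. No match on either strand was present in either window for the CCAAT box (CCAAT, in 32% of promoters), the AP-1 site (searched as TGANTCA, 6.57%), the antioxidant response element core (TGACNNNGC, 10.9%), the cAMP response element (TGACGTCA, 1.65%), the C/EBP-ATF response element (TGATGCAA, 0.772%), the XBP1 site (TGACGTGG, 0.612%), the ER stress response element (which contains the CCAAT box, 0.074%), the heat shock element (0.441%) or the E2F site (TTTCCCGC, 1.39%). N stood for any base, so the AP-1 share counts every base at that position. Of the 10 members 6 matched the promoter table, the others of these being ADAM15, ADAMTS2, ADAMTS6 and ADAMTS12. In the other 4 windows, matches other than GC boxes were 1 antioxidant response element core in ADAMTS2 and 1 AP-1 site in ADAMTS12. The RefSeq starts of ADAMTS6 and ADAMTS12 lie inside the deposited genes. The ADAMTS6 window (65481921 to 65482170) is wholly within the deposited gene (65148736 to 65482663). The ADAMTS12 window (33891991 to 33892240) is partly within the deposited gene (33523535 to 33892180), and its match to the AP-1 pattern lies inside that gene. These windows are thus not wholly upstream of the genes as counted. The match to the AP-1 pattern is in capitals within 21 bases at chr5:33892062-33892082, minus strand.
ADAMTS12: ctgtcagcTGAATCActcccc

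Of the 10 members, 2 rose after tt-DDE and 8 fell (edgeR quasi-likelihood test, Benjamini-Hochberg adjusted p over all 12531 genes tested, threshold 0.05). ADAM17 rose 3.27-fold and ADAMTS1 1.54-fold, ADAMTS6 and ADAMTS12 fell to 0.198 and 0.222 of their DMSO level, and the other 6 fell to between 0.581 and 0.752 of it. Across all genes tested 83.3% passed the same threshold, 41.7% higher and 41.6% lower, so a passing call is the usual outcome in this comparison. The even split holds under TMM scaling, and with library size alone 4737 genes were higher and 5689 lower. At least 2-fold changes that passed were less frequent, at 16.1% of all genes higher and 16.8% lower, and were seen in ADAM17 among the members that rose and in ADAMTS6 and ADAMTS12 among those that fell. The median log2 fold change was -0.72 over the members and 0.0013 over all genes. Libraries of the groups did not overlap in any of the 10 members, against 83.9% of all genes. All 10 members passed the filter on low counts. In bulk RNA, fewer cells that carry a transcript and less of it per cell cannot be told apart.

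**Figure D1:**
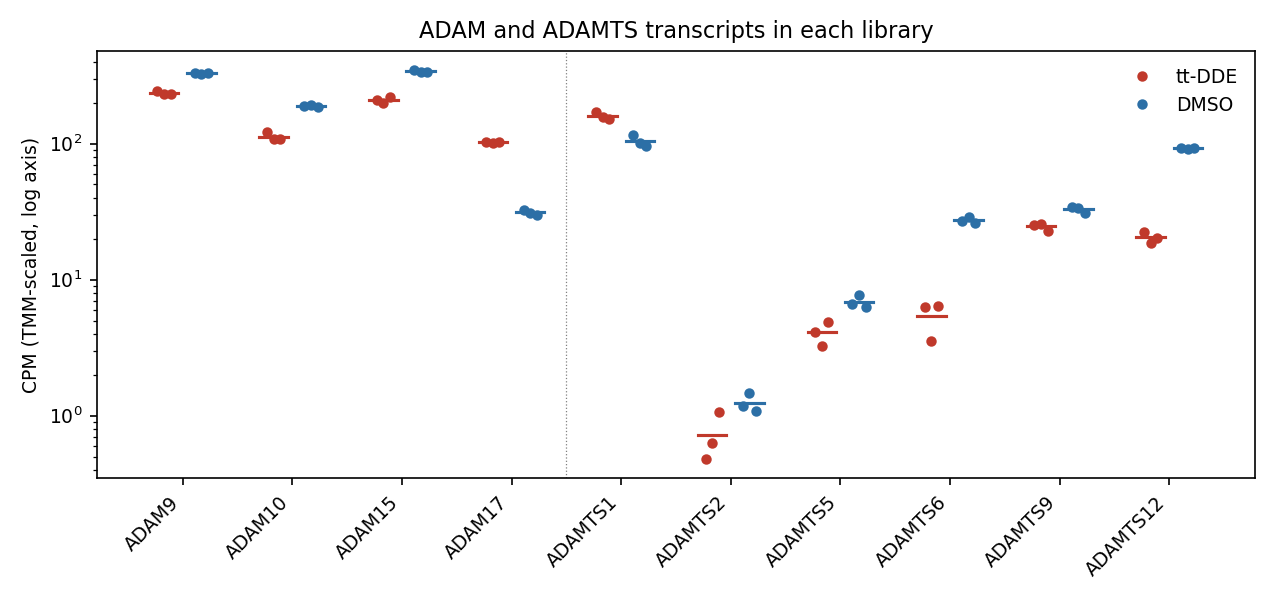
Level of each member in each library, as CPM scaled with TMM factors (log axis), with tt-DDE libraries in red to the left of DMSO libraries in blue and lines at group means. ADAM17 and ADAMTS1 lie higher in all 3 tt-DDE libraries, and the other 8 genes lie lower, closely so for ADAMTS2 (1.06 CPM in tt-DDE library 3 and 1.08 CPM in DMSO library 3).

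ADAM17, the shedding enzyme for tumour necrosis factor, had 103, 100.4 and 102 CPM (counts scaled to library size with TMM factors) in tt-DDE libraries 1 to 3, against 32.6, 30.8 and 30.1 CPM in DMSO libraries 1 to 3. The lowest tt-DDE library was thus more than 3 times the highest DMSO library, and the libraries of each group differed by little. The log2 fold change was 1.71 (SE 0.0563, edgeR adjusted p = 9.58e-30), and 6.46% of all genes tested had a larger rise. The gene lies on chromosome 2 from 9488486 to 9555830, minus strand (GRCh38.p13, as in the deposited table). Its exons share 1323 bases with those of IAH1, an esterase-like gene on the opposite strand, in GENCODE release 29, and 142 bases with the noncoding AC073195.1, also on the opposite strand. Whether the counting used strand is not given in the sources used here, so reads of that stretch cannot be assigned with certainty. IAH1 moved the other way, with 16.5 ± 1.59 CPM after tt-DDE and 40.4 ± 2.84 CPM in DMSO (SD, n = 3 each), a log2 fold change of -1.30 (edgeR adjusted p = 3.36e-19).

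ADAM10, the Notch and N-cadherin sheddase, had 121, 108 and 109 CPM after tt-DDE, against 189, 191 and 186 CPM in DMSO. All 3 tt-DDE libraries lay well below the DMSO libraries. Its log2 fold change was -0.74 (SE 0.0445, edgeR adjusted p = 6.6e-20), near the median of the members. Its exons share 136 bases with the antisense transcript AC018904.1.

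ADAM9 had 242, 233 and 230.5 CPM after tt-DDE, against 329, 325 and 330.1 CPM in DMSO, and ADAM15, whose disintegrin domain binds integrins, had 209, 199 and 220 CPM after tt-DDE, against 346, 336 and 335 CPM in DMSO. Both were abundant in both groups and were lower in every tt-DDE library. Their log2 fold changes were -0.48 (SE 0.0368) and -0.70 (SE 0.0388), with edgeR adjusted p = 4.27e-16 and 5.03e-21. In GENCODE release 29 the exons of ADAM15 share 306 bases with those of DCST1 on the same strand. By the deposited coordinates no other gene overlaps ADAM15. The annotation release behind the counts is not given, so reads of that stretch cannot be assigned with certainty. ADAM9 overlaps TM2D2 in the deposited table on the opposite strand of chromosome 8, and TM2D2 was higher after tt-DDE (77.7 ± 3.92 CPM, against 46.8 ± 2.35 CPM in DMSO, SD, n = 3 each). In GENCODE release 29 the exons of ADAM9 shared no bases with those of another gene.

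Among the ADAMTS proteases the single rise was that of ADAMTS1, which cuts the proteoglycans versican and aggrecan. It had 171, 157 and 152 CPM after tt-DDE, against 115, 101 and 96.6 CPM in DMSO. The lowest tt-DDE library lay above the highest DMSO library. The log2 fold change was 0.62 (SE 0.0504, edgeR adjusted p = 2.18e-15), a size that 26.1% of all genes exceeded. ADAMTS5, a further enzyme that cuts aggrecan and versican, lies 72512 bases from ADAMTS1 on the same strand of chromosome 21 and was lower, with 4.15, 3.28 and 4.85 CPM after tt-DDE, against 6.59, 7.75 and 6.25 CPM in DMSO. Its log2 fold change was -0.75 (SE 0.167, edgeR adjusted p = 7.99e-05). The direct neighbours on chromosome 21 thus changed in opposite directions.

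ADAMTS12, which cuts cartilage oligomeric matrix protein, had 22.5, 18.5 and 20.3 CPM after tt-DDE, against 93.5, 91.0 and 92.1 CPM in DMSO. ADAMTS6, a protease linked to fibrillin microfibrils, had 6.31, 3.53 and 6.38 CPM after tt-DDE, against 26.9, 28.9 and 26.1 CPM in DMSO. In both genes the groups stood more than 3-fold apart at their closest libraries, and tt-DDE library 2 was the lowest for both. The log2 fold change of ADAMTS12 was -2.17 (SE 0.0644, edgeR adjusted p = 1.57e-31) and that of ADAMTS6 was -2.34 (SE 0.124, edgeR adjusted p = 8.38e-22), and 3.49% and 2.89% of all genes had a larger fall. Both lie on chromosome 5, ADAMTS12 from 33523535 to 33892180 and ADAMTS6 from 65148736 to 65482663. The alternate-scaffold row of ADAMTS12 held 1 to 4 counts per library, and the chromosome 5 row alone had a log2 fold change of -2.19.

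ADAMTS9, a versican-cutting protease, had 25.3, 25.8 and 22.7 CPM after tt-DDE, against 34.2, 33.5 and 30.6 CPM in DMSO. The shift was the smallest of the 10 members (log2 fold change -0.41, SE 0.0763, edgeR adjusted p = 4.26e-06), yet no libraries of the groups overlapped. Its exons share 174 bases with the antisense transcript ADAMTS9-AS1. ADAMTS2, which removes the amino-terminal propeptide of fibrillar procollagens, was close to the limit of these libraries, with 8, 10 and 16 counts after tt-DDE, against 17, 24 and 18 counts in DMSO. The 34 counts after tt-DDE and the 59 in DMSO give a ratio of 0.541 after scaling to library totals (95% counting interval 0.344 to 0.839, counting error only). The log2 fold change of ADAMTS2 was -0.78 (SE 0.366, edgeR adjusted p = 0.0455). That call did not survive in 8 of 14 alternative settings, among them DESeq2 (adjusted p = 0.127) and the fits without tt-DDE library 1 (-0.55), tt-DDE library 2 (-0.70), DMSO library 1 (-0.83) or DMSO library 2 (-0.65). The value stayed negative in all 14.

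**Figure D2:**
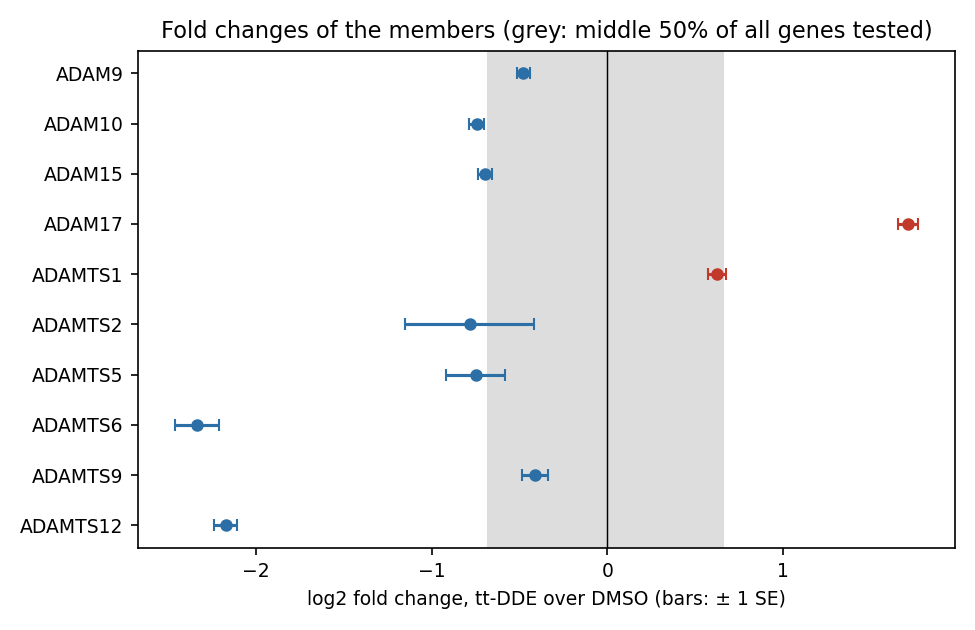
Log2 fold change of each member, tt-DDE over DMSO, with bars of 1 SE either side and a grey band for the middle 50% of all genes tested (-0.68 to 0.66). ADAM17 lies beyond the band on the right and ADAMTS6 and ADAMTS12 far beyond it on the left, ADAM10, ADAM15, ADAMTS2 and ADAMTS5 lie just past its left edge, and the bar of ADAMTS2 is the widest.

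Per length, the order of levels changed between the groups. The deposited FPKM (counts per length and library total, without TMM scaling) placed ADAM15 first in both groups, at 59.9 ± 3.08 FPKM after tt-DDE and 103.5 ± 1.62 FPKM in DMSO (SD, n = 3 each). After tt-DDE it was followed by ADAMTS1 (29.9 FPKM), ADAM9 (24.2), ADAM17 (14.8), ADAM10 (9.62), ADAMTS9 (3.05), ADAMTS12 (2.08), ADAMTS5 (0.397), ADAMTS6 (0.362) and ADAMTS2 (0.0960). In DMSO the order after ADAM15 was ADAM9 (35.9 FPKM), ADAMTS1 (20.7), ADAM10 (17.2), ADAMTS12 (10.0), ADAM17 (4.82), ADAMTS9 (4.33), ADAMTS6 (1.95), ADAMTS5 (0.709) and ADAMTS2 (0.175). Neighbours in these orders were separated in every library except for ADAMTS5 and ADAMTS6 after tt-DDE, which overlapped (0.317 to 0.470 FPKM for ADAMTS5 and 0.235 to 0.427 FPKM for ADAMTS6).

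Per length, ADAM17 and ADAM10 changed places, which rests on the deposited lengths of 6674 bases for ADAM17 and 11330 bases for ADAM10. In CPM, which is not divided by length, ADAM17 was below ADAM10 in all 6 libraries, and the pair was closest in tt-DDE library 3 (102 CPM for ADAM17 and 109 CPM for ADAM10). The ratio of ADAM17 to ADAM10 in FPKM was 1.43, 1.58 and 1.60 in the tt-DDE libraries, against 0.293, 0.273 and 0.275 in the DMSO libraries. In FPKM ADAM17 was the higher of the pair in each tt-DDE library and the lower in each DMSO library, a 5.50-fold difference in the mean ratio (1.54 ± 0.0920 after tt-DDE and 0.280 ± 0.0109 in DMSO, SD, n = 3 each). The exact permutation test gave a two-sided p = 0.1, the smallest that 3 libraries against 3 can give, and p = 0.111 after adjustment over the 10 ratios, sums and shares tested. A ratio within a library does not depend on how the library was scaled, and its fold difference between the groups does not depend on the lengths. As a share of the summed FPKM of the 4 ADAM members, ADAM17 made up 13.6% ± 0.259 after tt-DDE and 2.98% ± 0.0842 in DMSO (SD, n = 3 each), while that sum was lower after tt-DDE (108 ± 3.59 FPKM, against 161 ± 1.80 FPKM in DMSO).

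**Figure D3:**
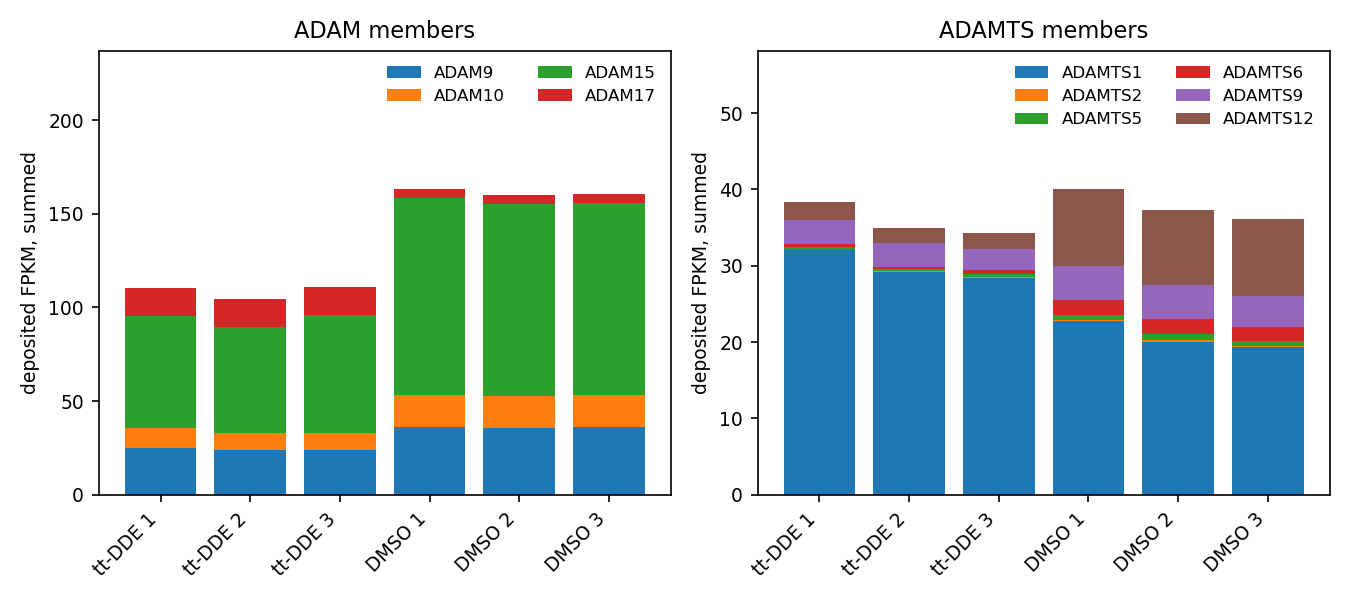
Deposited FPKM of the ADAM members (left) and ADAMTS members (right), stacked per library, tt-DDE libraries to the left of DMSO libraries. The ADAM stack is shorter after tt-DDE (104 to 111 FPKM, against 160.1 to 164 FPKM in DMSO), and the ADAMTS stacks are of similar height (34.3 to 38.3 FPKM after tt-DDE and 36.1 to 40.1 FPKM in DMSO) with a larger ADAMTS1 part.

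The summed level of the 6 ADAMTS members differed by less than the spread between libraries, while its makeup shifted. The sum was 38.3, 34.9 and 34.3 FPKM after tt-DDE, against 40.1, 37.4 and 36.1 FPKM in DMSO, and these ranges overlap (exact permutation test, two-sided p = 0.3). ADAMTS1 made up 83.5%, 83.7% and 82.7% of it after tt-DDE, against 56.7%, 53.6% and 53.5% in DMSO. ADAMTS12 made up 5.80% ± 0.375 after tt-DDE and 26.5% ± 1.31 in DMSO (SD, n = 3 each). The mean ratio of ADAMTS1 to ADAMTS12 was 14.4 ± 1.03 after tt-DDE and 2.07 ± 0.166 in DMSO, and that of ADAMTS1 to its neighbour ADAMTS5 was 77.3 ± 16.1 after tt-DDE and 29.4 ± 4.25 in DMSO (SD, n = 3 each). For both shares and both ratios the groups did not overlap and the exact permutation test was again at its smallest two-sided p = 0.1.

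**Figure D4:**
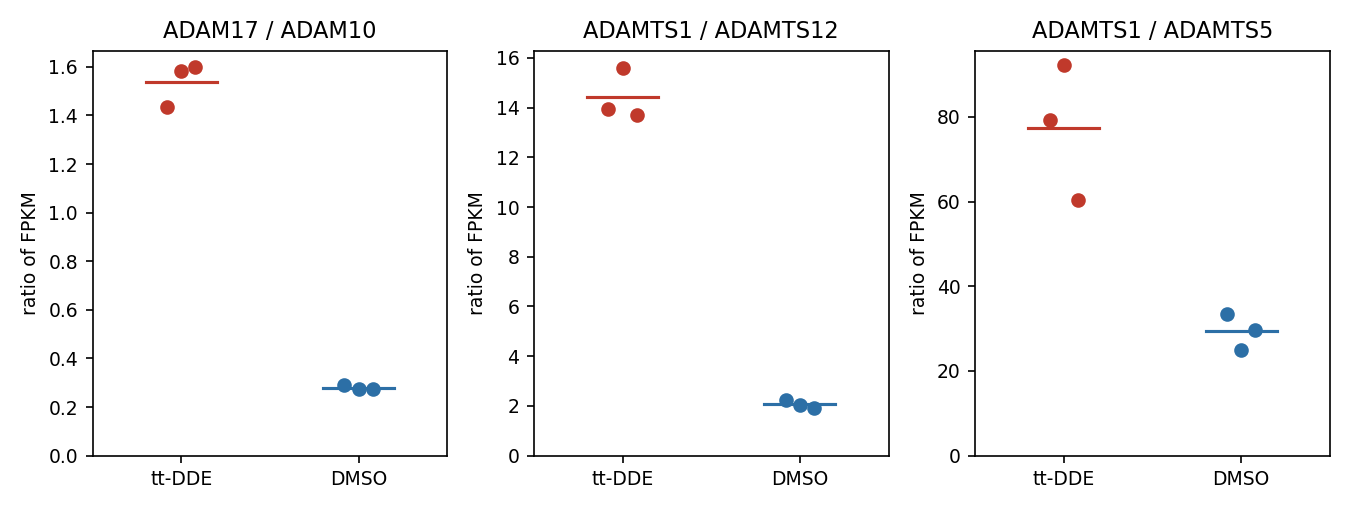
Ratio of deposited FPKM between pairs of members in each library (points) with the group mean (line), tt-DDE left and DMSO right. The ADAM17 to ADAM10 ratio is 1.43 to 1.60 after tt-DDE and 0.273 to 0.293 in DMSO, and the ADAMTS1 ratios are also higher in every tt-DDE library.

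Other genes whose profile over the 6 libraries was closest to the strongest movers were found by the root mean square difference of centred log2 CPM among 10310 genes with a mean of at least 5 CPM over all 6 libraries. For ADAM17 these were MAPRE3, which encodes a microtubule end-binding protein (0.0396 log2 units, log2 fold change 1.71), and IGF2R, the mannose 6-phosphate receptor (0.0398, log2 fold change 1.66). For ADAMTS12 they were HYAL2, a hyaluronidase (0.0294, log2 fold change -2.15), and PTPRB, a receptor phosphatase (0.0339, log2 fold change -2.15). For ADAMTS6 they were CCND1, cyclin D1 (0.105, log2 fold change -2.32), and ADAMTSL1, an ADAMTS-like protein without protease activity (0.125, log2 fold change -2.58). The groups differed far more than the libraries within them, so this distance mostly reflects a similar fold change. Shared regulation was not tested.

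Relatives outside the 10 members moved both ways. Of 17 other ADAM genes 6 could be tested, of which 2 rose and 3 fell. Across all genes tested 41.7% passed as higher and 41.6% as lower, and these shares apply to the list counts that follow as well. ADAM12, a sheddase of muscle and mesenchymal cells, fell to 29.7 ± 1.97 CPM after tt-DDE, against 121 ± 1.12 CPM in DMSO (SD, n = 3 each), and ADAM22 and ADAM23, which lack protease activity, had log2 fold changes of -1.39 and -0.62. ADAM8 rose by 2.63 on the log2 scale, from few counts (76 after tt-DDE and 12 in DMSO), and ADAM11 by 1.02. ADAM19 did not pass (25 ± 0.515 CPM after tt-DDE and 26.0 ± 0.601 CPM in DMSO, SD, n = 3 each). Of 20 other ADAMTS and ADAMTS-like genes 11 could be tested, of which 8 fell and 1 rose, with a median log2 fold change of -1.30. ADAMTSL1 fell the most of these (2.95 ± 0.827 CPM after tt-DDE and 17.6 ± 0.152 CPM in DMSO), and ADAMTSL3, ADAMTSL4 and THSD4, an ADAMTS-like protein that binds fibrillin, had log2 fold changes of -1.65, -1.67 and -2.14. ADAMTSL5 rose (0.67). The count of rises was 2 without tt-DDE library 1, tt-DDE library 3 or any of the 3 DMSO libraries, and 5 without the count filter.

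Partners that guide the sheddases did not move as a block. Of 10 such genes 2 rose, 5 fell and 3 did not pass, at a median of -0.23, where 83.3% of all genes tested passed in either direction. RHBDF1 (iRhom1), which carries ADAM17 through the secretory pathway, had 66.3 ± 2.24 CPM after tt-DDE and 33.8 ± 2.23 CPM in DMSO, a log2 fold change of 0.97 (edgeR adjusted p = 5.37e-19), whereas RHBDF2 (iRhom2), its relative with the same role, had 15.0 ± 1.66 CPM after tt-DDE and 20.2 ± 1.77 CPM in DMSO, a log2 fold change of -0.43 (SD, n = 3 each, edgeR adjusted p = 0.000123). FRMD8, which stabilises the iRhom and ADAM17 complex, did not pass (42.0 CPM after tt-DDE and 38.1 CPM in DMSO), although without tt-DDE library 1 it passed at 0.18. PACS2, a sorting protein of ADAM17, fell (-0.76). Among the TspanC8 tetraspanins, which escort ADAM10, TSPAN14, TSPAN10 and TSPAN15 fell (-0.60, -1.07 and -1.09), while TSPAN5 was at 70.7 CPM after tt-DDE and 68.9 CPM in DMSO and did not pass. TSPAN17 did not pass either (80.9 CPM after tt-DDE and 82.3 CPM in DMSO, log2 fold change -0.025), although with library size alone it passed as lower at -0.12. TSPAN33 rose by 2.90, with 166 counts after tt-DDE and 22 in DMSO.

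Inhibitors fell in 5 of 6 genes tested, at a median of -0.88, where 41.6% of all genes tested passed as lower. TIMP3, a matrix-bound inhibitor of ADAM17 and of aggrecan-cutting ADAMTS proteases whose mutations cause Sorsby fundus dystrophy, had 124 ± 3.73 CPM after tt-DDE and 238 ± 3.80 CPM in DMSO (SD, n = 3 each), a log2 fold change of -0.94 (edgeR adjusted p = 3.93e-25). TIMP2 fell by 1.71 and TIMP1, an inhibitor of ADAM10, by 0.15. SFRP1 and RECK, both inhibitors of ADAM10, had log2 fold changes of -1.56 and -0.82, and TIMP4 rose (0.83). Summed over the list, 365 to 376 CPM after tt-DDE stood against 860 to 871 CPM in DMSO (scaled to library size alone). TIMP2 was the largest part of the DMSO sum (432.5 ± 7.42 CPM, against 131.8 ± 7.96 CPM after tt-DDE, SD, n = 3 each). TIMP1 stood at 95.2 CPM after tt-DDE and 105.7 CPM in DMSO. Inhibition of the proteases was not measured.

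Enzymes that mature these proteases moved both ways. FURIN, which removes the inhibitory propeptide, stood at 156 ± 6.19 CPM after tt-DDE and 156 ± 4.46 CPM in DMSO (SD, n = 3 each) and did not pass, while PCSK5 rose (1.66) and PCSK7 fell (-0.45). POFUT2 and B3GLCT add, in turn, the fucose and the glucose of thrombospondin repeats, which ADAMTS proteases need for secretion. POFUT2 rose to 126 ± 2.94 CPM after tt-DDE, against 47.8 ± 1.55 CPM in DMSO, and B3GLCT fell to 9.86 ± 2.60 CPM after tt-DDE, against 27.3 ± 0.691 CPM in DMSO (SD, n = 3 each). DPY19L1, a mannosyltransferase of the same repeats, fell (-0.50), and DPY19L3 did not pass (0.04).

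**Figure D5:**
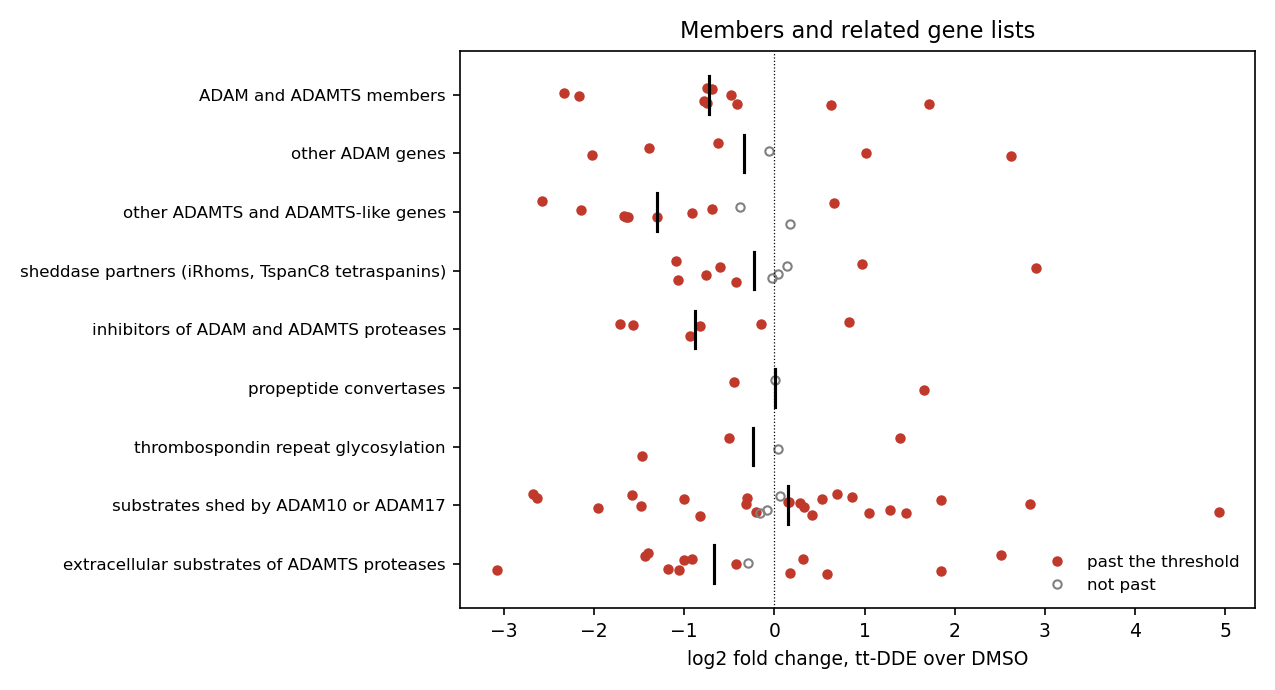
Log2 fold change of each gene tested, tt-DDE over DMSO, for the members and the related lists (rows), with filled points past the threshold, open points not past it and a black line at each list's median. The medians run from -1.30 for other ADAMTS and ADAMTS-like genes to 0.15 for substrates of ADAM10 and ADAM17.

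Membrane proteins that ADAM10 or ADAM17 can shed were tested in 27 genes, of which 14 rose and 10 fell, and their median log2 fold change was 0.15. The shares over all genes tested were 41.7% higher and 41.6% lower. With library size alone, and with limma on log2(FPKM + 1), 11 rose and 11 fell. The 4 smallest p-values were those of falls: AXL, a receptor kinase, had 124 ± 15.3 CPM after tt-DDE and 769 ± 17.9 CPM in DMSO (SD, n = 3 each), and SDC1, ALCAM and PTPRF had log2 fold changes of -2.68, -1.96 and -1.58. Among ligands and receptors singled out after their values were seen, NOTCH3 had 132 counts over the tt-DDE libraries and 4 over the DMSO libraries (log2 fold change 4.93), HBEGF and IL6R, both released by ADAM17, rose by 1.84 and 2.84, TGFA fell by 1.48, and APP, cut by ADAM10, rose by 0.53. NOTCH1 and the Notch ligand JAG1 rose (0.32 and 1.05). NOTCH2, more abundant than NOTCH1 and NOTCH3, rose by 0.15 (670 CPM after tt-DDE and 604 CPM in DMSO). Its call held in 11 of 14 alternative settings. CDH2, N-cadherin, fell to 124 ± 6.96 CPM after tt-DDE, against 248 ± 8.35 CPM in DMSO (SD, n = 3 each). Of 14 tested matrix substrates of ADAMTS proteases 8 fell and 5 rose, at a median of -0.67. THBS1, FBN2, FN1 and FBN1 fell (-3.08, -1.41, -1.06 and -1.44), and COL1A1 rose (2.51). VCAN, the versican gene, had 2 counts over the tt-DDE libraries and 16 over the DMSO libraries, and ACAN, the aggrecan gene, had 5 over the tt-DDE libraries and 0 over the DMSO libraries, so neither could be tested.

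Library totals were 15548067 to 17130543 counts after tt-DDE and 14156421 to 16061373 counts in DMSO, and 3 counts, the floor for detection, were worth 0.175 to 0.193 CPM in the tt-DDE libraries and 0.187 to 0.212 CPM in the DMSO libraries. The cell line label was set against pigment epithelium markers: OTX2, PAX6 and MITF were present (62.9, 78.7 and 54.3 CPM after tt-DDE and 64.0, 89.9 and 59.4 CPM in DMSO), while RPE65 had 0 counts in all 6 libraries. Over all 17 markers of the list, 13 were tested, of which 3 rose and 6 fell. The rises were those of BEST1 (21.6 CPM after tt-DDE and 0.506 CPM in DMSO, log2 fold change 5.39), MERTK (2.40) and TYRP1 (1.08). The sum over the list was 892 to 928 CPM after tt-DDE and 2150 to 2180 CPM in DMSO, mostly through KRT8, KRT18 and EZR (this and the sums below scaled to library size alone). Of 8 leukocyte markers 2 were tested, 3 were at 0, and the sum of 96.5 to 113 CPM after tt-DDE and 131 to 136 CPM in DMSO was nearly all CD68, which fell (-0.29), while CD14 had 84 counts over the tt-DDE libraries and 2 over the DMSO libraries. PTPRC, which defines leukocytes, had 4 counts over the tt-DDE libraries and 6 over the DMSO libraries. Endothelial markers, of which 1 of 6 was tested and did not pass, summed to at most 2.12 CPM after tt-DDE and 2.18 CPM in DMSO. Fibroblast markers, of which 4 of 11 were tested, 1 rose (COL1A1), 3 fell (S100A4, FAP and PDGFRB) and LUM was at 0, summed to 80.6 to 91.1 CPM after tt-DDE and 82.2 to 83.8 CPM in DMSO. Photoreceptor and neuron markers, of which 4 of 9 were tested, 3 rose, 0 fell and RCVRN and CRX were at 0, summed to 224 to 247 CPM after tt-DDE and 126 to 136 CPM in DMSO. The part of these markers in the results for the proteases was not tested.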

How the data were processed

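The RNA-seq libraries, 3 from tt-DDE and 3 from DMSO cultures of ARPE-19, were grouped and numbered by their titles. Per the file headers, the authors deposited a read count and an FPKM per row and library. The counts as deposited are whole numbers and not normalized. The deposited FPKM equalled count per length and per column total for all 91254 values above 0 (relative tolerance 1e-06). The gene length in bases is also given per row, per the file headers. Per the submitters' processing notes the genome was GRCh38.p13. No aligner, counter, annotation release or strand setting is given in the sources used here.

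Counts of rows sharing a name were summed over the table. The test was edgeR's quasi-likelihood test (edgeR 4.0.16, R 4.3.3; glmQLFit and glmQLFTest, with TMM factors, the filterByExpr filter and group as the sole term). Tests were two-sided and p-values were adjusted by Benjamini-Hochberg over 12531 genes, at a threshold of 0.05. CPM values are TMM-scaled unless said otherwise. SD is over 3 libraries. Alternatives used DESeq2 1.42.0, limma 3.58.1 and other settings.

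The members and lists were chosen with earlier results of these data known. Named genes were all members, for each related list the up to 4 genes of smallest p and the best-ranked gene of the less frequent direction, and fixed partners of the members. Further genes (HBEGF, IL6R, TGFA, APP, NOTCH1, NOTCH2, NOTCH3, JAG1, CDH2, TSPAN17, TSPAN33, ADAM11, ADAM19, IAH1, TM2D2, ACAN and the markers) were named after their values were seen. Chi-square values per degree of freedom between libraries of a group were 1.74 to 3.57, above sampling noise, so none was counted as the same library sequenced again. Such values cannot tell separate cultures from separate preparations of the same culture. Without molecular identifiers, PCR copies cannot be told from separate molecules, and floors and intervals describe counting error alone. Sequences are from RefSeq (GRCh38.p14).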

Additional observations from a re-analysis of the deposited data

How the results depend on the processing

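Of 140 fold changes of the 10 members under the 14 alternatives, 132 kept their direction and their side of the threshold. The other 8 were those of ADAMTS2, which stayed negative but did not pass with DESeq2 (-0.77), without the count filter (-0.81), with the replicate block (-0.78) or with limma on log2(FPKM + 1) (-0.10); with a library left out its log2 fold change ran from -1.15 to -0.55. The cause was not tested. The count of members that rose was 2 throughout, and that of members that fell was 7 or 8. FURIN, TSPAN5 and DPY19L3, which did not pass in the report, changed sign at values near 0. FURIN was at -0.09 with library size alone, where it passed as lower (edgeR adjusted p = 0.0495) and took the propeptide convertases that fell to 2, against 1 in the report, and with limma on log2 FPKM at both pseudocounts (1 and 0.1), -0.02 without the filter and 0 with rows kept apart. TSPAN5 was at -0.05 in the first 3 of these settings, and DPY19L3 at -0.06, -0.05 and -0.06. With libraries left out, FURIN ran from -0.02 to 0.03, TSPAN5 from -0.01 to 0.09 and DPY19L3 from 0 to 0.05. FRMD8 passed at 0.15 with DESeq2 size factors and at 0.18 without tt-DDE library 1. With library size alone the median of all genes was -0.091, with 4737 genes higher and 5689 lower, and limma on log2(FPKM + 1) gave 4671 and 5639. Same-numbered libraries did not deviate together (r = -0.026, 0.008 and -0.012). With 3 libraries per group such values cannot tell whether the numbers mark pairs, and the main test used no pairing. Under the replicate block 5192 genes were higher and 5179 lower, against 5223 and 5210 in the main test. Limma on log2(FPKM + 1) shrank low genes, with ADAMTS6 at -1.12 and ADAMTS5 at -0.29. Depth limits ADAMTS2 most, at 8 to 24 counts per library.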
